A study of Mus musculus with 6 samples.

Results

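The cytosolic ribosomal protein genes encode the protein part of the ribosome that translates nuclear-encoded mRNA. They were chosen by symbol, as Rpl or Rps with a number and at most a letter behind it, with Rplp0, Rplp1, Rplp2 and Rpsa added, and with kinases, pseudogenes and like-named paralogs left out. Of 22180 genes that a probe set with 1 gene symbol measured, 57 met this rule, 22 of the small subunit and 35 of the large subunit. The tissue was whole liver from C57BL/6N males of 2 months, hybridised to 1 array per sample. The 3 KO samples came from mice labelled cGK1-KO, which lack cGMP-dependent protein kinase 1 (gene Prkg1) and carry a rescue of it in smooth muscle per the series description. The 3 control samples came from mice called control there and wild type in the sample labels. The promoter of the rescue, and whether each sample was 1 animal, are not given in the sources used here. Every p-value therefore reflects only how much these samples spread, which may be technical. Values are the authors' log2 RMA expression, differences are KO minus control, and n = 3 per group throughout.

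Each ribosome holds 1 copy of nearly every ribosomal protein, and cells make these proteins in matched amounts, so their genes are known for moving together. In vertebrates much of this control is on translation: the mRNAs begin with a C and a run of further pyrimidines, the terminal oligopyrimidine (TOP) tract, through which the mTORC1 kinase complex and the RNA-binding protein LARP1 set how much of each mRNA is translated. An array measures mRNA abundance, not that step. The liver secretes most plasma proteins and holds many ribosomes.

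The targeted gene did not check the labels: Prkg1 read 3.31, 3.04 and 3.22 in KO livers and 3.32, 2.97 and 2.95 in control livers, a dim signal in mice with a rescue and with an unstated deleted part. Array medians over all probe sets lay between 3.11 and 3.16. Over all tested genes the KO arrays correlated with each other at 0.978 to 0.983 and the control arrays at 0.989 to 0.990. Of all 22180 genes, 0 passed an adjusted p of 0.05 in limma and 2334 had an unadjusted p under 0.05 (10.5%, against 12.3% of the ribosomal protein genes). Without KO replicate 3, 66 genes passed, and without control replicate 3, 3 genes, with 0 ribosomal protein genes among them in either case.

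As a group the ribosomal protein mRNAs centred on no difference between KO and control livers. The median log2 difference of the 57 genes was 0.0016, a ratio of 1.00, beside 0.0011 for all 22180 tested genes. There were 31 positive and 26 negative differences. In limma, adjusted over all tested genes by the Benjamini-Hochberg method, 0 of the 57 genes passed 0.05, the smallest adjusted p being 0.278, while 0% of all tested genes passed. At an unadjusted p under 0.05, 5 members lay higher in KO (8.77%, against 5.06% of all tested genes) and 2 lay lower (3.51%, against 5.46%). The 22 small subunit genes had a median of -0.0020 and the 35 large subunit genes a median of 0.013. The quartiles of the members lay between -0.10 and 0.10, and those of all tested genes between -0.14 and 0.14.

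The size and the 95% interval of each difference hold for the chosen probe set alone. In Rpl4, for example, that interval ran from -0.47 to 0.21, while a second probe set gave 0.69. In 47 of 57 members the estimate was within 1.25-fold of no difference, 82.5% beside 84.0% of all tested genes. The whole 95% interval of the difference lay within 1.5-fold in 35 members, 61.4% beside 64.0%. An estimate of at least 1.5-fold was reached by 3 members, Rpl29, Rps18 and Rpl37 (5.26%, against 2.92% of all tested genes).

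**Figure D1:**
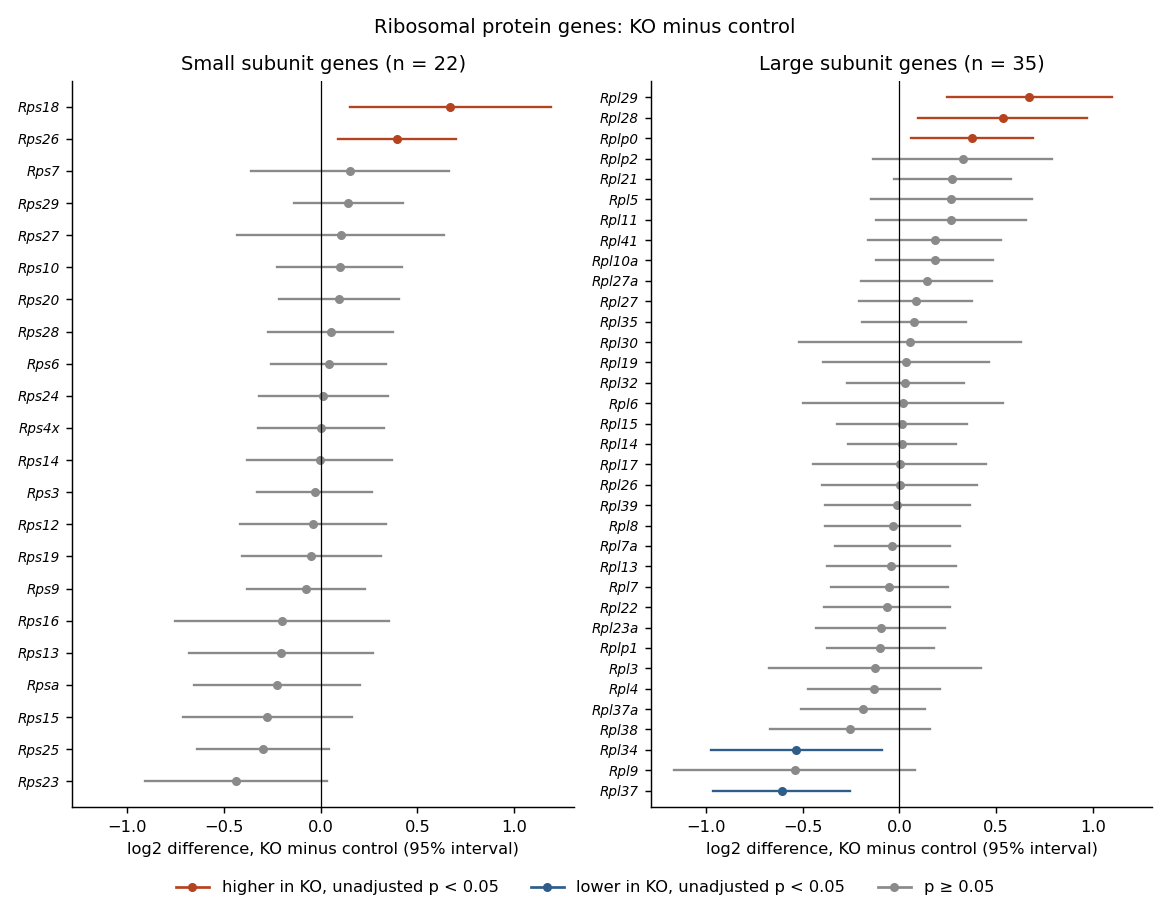
Log2 difference (KO minus control) of each of the 57 ribosomal protein genes with its 95% interval from limma, small subunit genes on the left and large subunit genes on the right, ordered by size. Most points lie near 0, 5 genes lie higher and 2 lower at an unadjusted p under 0.05, and 0 passed after adjustment.

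The 5 members with the smallest p among those higher in KO were Rpl29, Rps26, Rps18, Rpl28 and Rplp0. Rpl29, a small basic protein of the large subunit, read 9.76, 9.68 and 9.95 in KO replicates 1 to 3, against 8.84, 8.99 and 9.54 in control replicates 1 to 3. All KO values lay above all control values, and control replicate 3 came nearest to them. The difference was 0.67 (SE 0.19, limma adjusted p = 0.306), a ratio of 1.59 with a 95% interval of 1.18 to 2.14. Rpl28, a large subunit protein that baker's yeast lacks, had 10.5, 10.5 and 10.7 in KO livers, against 9.67, 9.91 and 10.4 in control livers. The order of the control arrays was the same as for Rpl29, and the groups did not overlap. Its difference was 0.53 (SE 0.19, limma adjusted p = 0.394). Across the 6 arrays Rpl29 and Rpl28 were each other's nearest match among the members, with a Pearson r of 0.986. It is given as a description, because all members share the same arrays. The r also includes the difference between the groups, by which both genes were picked.

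Rps26 lines the channel through which the mRNA leaves the small subunit, and its human counterpart is a Diamond-Blackfan anaemia gene. It read 8.04, 8.08 and 8.06 in KO livers and 7.47, 7.74 and 7.78 in control livers. The KO arrays were closer to each other than the control arrays, at 8.06 ± 0.020 and 7.66 ± 0.17 (SD), and the groups did not overlap. The difference was 0.39 (SE 0.13, limma adjusted p = 0.367). Rplp0 forms the base of the stalk that recruits elongation factors and is often used as a reference gene in quantitative PCR. Its values were 6.65, 6.58 and 6.59 in KO livers, against 6.13, 6.10 and 6.45 in control livers. These did not overlap either, and the difference was 0.37 (SE 0.14, limma adjusted p = 0.402). Rps18, a protein of the head of the small subunit, had 5.92, 5.67 and 4.97 in KO livers and 5.03, 4.69 and 4.82 in control livers. Here KO replicate 3 lay inside the control range, so the groups overlapped. Its difference was 0.67 (SE 0.23, limma adjusted p = 0.369), with 0.94 when KO replicate 3 was left out and 0.47 when KO replicate 1 was. Next in order came Rpl21, at 10.7, 10.9 and 10.7 in KO livers and 10.3, 10.5 and 10.6 in control livers. Its groups did not overlap, and the difference was 0.27 (SE 0.13, limma adjusted p = 0.515).

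The 2 members below an unadjusted p of 0.05 that lay lower in KO were Rpl37 and Rpl34, both of the large subunit. Rpl37 read 2.74, 2.87 and 2.48 in KO livers, against 3.33, 3.10 and 3.47 in control livers. It was the sole member whose KO values all lay below its control values. The difference was -0.61 (SE 0.16, limma adjusted p = 0.278), a 1.53-fold lower level, but its mean was under 3.55, the median of all tested genes and here the limit of dim signal, so the size is uncertain. Rpl34 had 5.08, 4.50 and 4.33 in KO livers and 5.27, 5.21 and 5.03 in control livers. KO replicate 1 overlapped the controls, and the difference was -0.53 (SE 0.20, limma adjusted p = 0.398). Over the whole family, the groups did not overlap with KO higher in 6 members (10.5%, against 7.61% of all tested genes) and with KO lower in 1 (1.75%, against 9.14%). The sixth non-overlapping gene with KO higher, beside Rpl29, Rps26, Rpl28, Rplp0 and Rpl21, was Rpl35. It differed by only 0.073 (SE 0.12, limma adjusted p = 0.864).

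**Figure D2:**
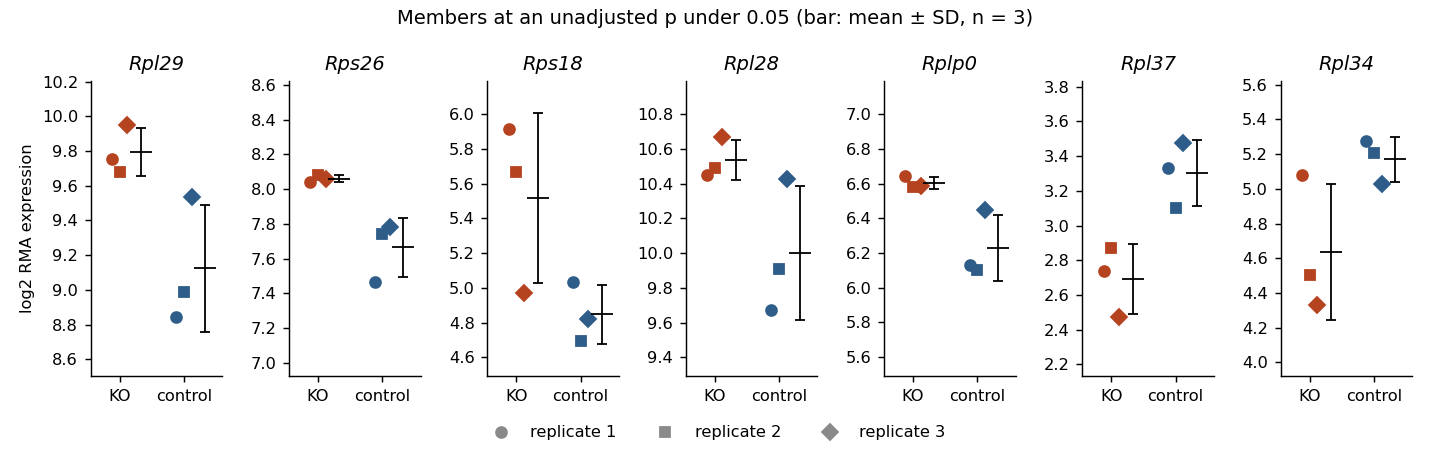
Log2 RMA expression on each array for the 7 ribosomal protein genes at an unadjusted p under 0.05, KO arrays left of control arrays, symbols for replicate numbers and bars for mean ± SD (n = 3); every panel spans the same number of log2 units. In Rpl29, Rps26, Rpl28 and Rplp0 all KO arrays lie above all control arrays, in Rpl37 all lie below, and in Rps18 and Rpl34 the groups overlap.

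The TOP tract lies at the start of transcription, so the sequence around an annotated start is shown for some members. These are the members at an unadjusted p under 0.05 that have a promoter entry. Rps6 (0.041) and Rpl14 (0.013), 2 members with a difference near 0, are shown beside them. Each line gives 15 bases before and 15 bases from the start on, 5′ to 3′, from RefSeq on GRCm38.p6, and capitals mark runs of at least 8 C or T.
Rps26 (chr10:128626492-128626521, minus strand): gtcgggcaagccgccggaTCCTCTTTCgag
Rps18 (chr17:33955651-33955680, minus strand): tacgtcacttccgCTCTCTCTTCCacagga
Rpl28 (chr7:4792950-4792979, plus strand): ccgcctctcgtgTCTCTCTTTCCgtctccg
Rplp0 (chr5:115559452-115559481, plus strand): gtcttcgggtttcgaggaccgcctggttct
Rpl37 (chr15:5116598-5116627, plus strand): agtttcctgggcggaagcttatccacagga
Rpl34, 1 of its 2 starts (chr3:130730323-130730352, minus strand): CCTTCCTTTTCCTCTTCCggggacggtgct
Rps6 (chr4:86857353-86857382, minus strand): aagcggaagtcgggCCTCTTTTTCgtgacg
Rpl14 (chr9:120571502-120571531, plus strand): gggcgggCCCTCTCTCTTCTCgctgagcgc
Runs of pyrimidines were present in members on both sides of 0 (Rpl28 and Rpl34) and in Rps6 and Rpl14, and were missing from this window in Rplp0 and Rpl37. Rps6 and Rpl14 do not stand for all members near 0: Rpl26 (0.0005), Rps4x (0.0016) and Rps3 (-0.030) had no run in this window.

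Of the 57 members, 44 had a promoter entry. A run of at least 8 C or T was searched on the strand that matches the mRNA, within the 30 bases around any of a gene's annotated starts. It was found in 20 of these 44 genes (45.5%), against 13.9% of 27025 genes with an entry. The core motif of ETS factors such as GABP, CCGGAAG on either strand of the 300 promoter bases, was also found in 20 of 44 genes (45.5%), against 9.93% of all genes. On the opposite strand the core reads CTTCCGG, so it can overlap a pyrimidine run. Annotated starts can be off by some bases, and a match is a description of the letters.

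Among members chosen for their role, differences were mostly small. Rps6, the substrate of the S6 kinases downstream of mTORC1, read 10.5, 10.7 and 10.6 in KO livers, against 10.6, 10.6 and 10.5 in control livers. The groups overlapped fully, the difference was 0.041 (SE 0.13, limma adjusted p = 0.939), and the 95% interval spanned ratios of 0.837 to 1.26. The stalk proteins that sit on Rplp0 had differences of either sign. Rplp1 had 9.67, 9.84 and 9.78 in KO livers and 9.88, 9.88 and 9.84 in control livers, with a difference of -0.10 (SE 0.12). Rplp2 had 3.32, 2.67 and 3.36 in KO livers, against 2.87, 2.56 and 2.95 in control livers, a difference of 0.33 (SE 0.20) from a dim probe set, which was 0.55 without KO replicate 2 and 0.21 without KO replicate 3.

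Among decoding and initiation proteins of the small subunit, Rps3, at the mRNA entry channel, read 7.38, 7.65 and 7.39 in KO livers and 7.51, 7.52 and 7.47 in control livers. KO replicate 2 was the highest of the 6 and the other 2 KO arrays were the lowest. Rps23, beside the decoding centre, had 4.38, 3.93 and 3.74 in KO livers, against 4.26, 4.82 and 4.28 in control livers. Its difference of -0.44 (SE 0.21, limma adjusted p = 0.502) came with overlapping groups and was -0.26 without control replicate 2. Rps25, needed for initiation at several viral internal entry sites, had 6.44, 6.75 and 6.91 in KO livers and 7.04, 7.05 and 6.91 in control livers. KO replicate 3 reached the lowest control, and the difference was -0.30 (SE 0.15, limma adjusted p = 0.528), or -0.17 without KO replicate 1. Rps15, a protein of the small subunit head, read 2.56, 2.63 and 2.56 in KO livers and 2.70, 3.32 and 2.56 in control livers. That signal was dim and the difference of -0.28 (SE 0.19) rested on control replicate 2, without which it was -0.048, and was -0.43 without control replicate 3. Rpsa, also known as the laminin receptor, had 8.11, 8.62 and 8.14 in KO livers and 8.69, 8.65 and 8.20 in control livers, with a difference of -0.22 (SE 0.19) that lay between -0.39 without KO replicate 2 and -0.13 without KO replicate 1.

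For Rps19, Rps24 and Rps14, which are tied to human anaemias, differences were near 0. The Diamond-Blackfan gene Rps19 had 6.95, 7.25 and 7.09 in KO livers, against 7.42, 7.03 and 6.98 in control livers, a difference of -0.050 (SE 0.16). Rps24, another such gene, read 6.42, 6.77 and 6.69 in KO livers and 6.79, 6.54 and 6.51 in control livers, a difference of 0.013 (SE 0.15). In both genes KO replicate 1 was the lowest and control replicate 1 the highest of all 6 arrays. Rps14, lost in a human myelodysplastic deletion, had 3.81, 4.11 and 4.11 in KO livers and 3.94, 3.81 and 4.30 in control livers, with a difference of -0.0056 (SE 0.17).

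In the large subunit, Rpl5 and Rpl11 bind the smallest ribosomal RNA and, when free, the p53 inhibitor Mdm2. Rpl5 read 3.39, 3.54 and 3.40 in KO livers and 2.78, 3.26 and 3.49 in control livers. Rpl11 read 3.10, 2.95 and 2.59 in KO livers and 2.71, 2.38 and 2.74 in control livers. Both were dim, both overlapped between groups, and both differed by 0.27 (SE 0.19 for Rpl5 and 0.17 for Rpl11). Single arrays moved these values: Rpl5 differed by 0.069 without control replicate 1 and 0.43 without control replicate 3, and Rpl11 by 0.15 without control replicate 2, 0.16 without KO replicate 1 and 0.41 without KO replicate 3. Rpl26, which in human cells also binds p53 mRNA, had 5.01, 5.26 and 4.69 in KO livers, against 4.77, 5.13 and 5.07 in control livers, a difference of 0.0005 (SE 0.18). Among 16 tested p53 pathway genes, 1 lay higher and 1 lower at an unadjusted p under 0.05 (6.25% each, against 5.06% and 5.46% of all tested genes) and 0 passed after adjustment. They were the antiproliferative gene Btg2, at 0.84 (SE 0.27, limma adjusted p = 0.346), and the kinase gene Plk3, at -0.99 (SE 0.41, limma adjusted p = 0.437). Btg2 differed by 0.50 without KO replicate 2, and Plk3 by -0.62 without KO replicate 1 and -1.52 without KO replicate 3. Mdm2 itself differed by -0.30 (SE 0.14, limma adjusted p = 0.497) and its relative Mdm4 by -0.31 (SE 0.14, limma adjusted p = 0.480).

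Rpl3, which shapes the peptidyl transferase centre, had 6.11, 6.01 and 5.27 in KO livers, against 5.61, 6.25 and 5.91 in control livers. The difference was -0.13 (SE 0.24), and turned to 0.13 without KO replicate 3 and 0.037 without control replicate 2. Rpl9, near the site where elongation factors bind, read 6.06, 6.37 and 5.13 in KO livers and 6.39, 6.49 and 6.30 in control livers. KO replicate 3 was far below the rest, so that the difference of -0.54 (SE 0.28, limma adjusted p = 0.529) became -0.18 without it, and was -0.26 with the mean of its probe sets. Rpl38, needed for translation of Hox mRNAs in mouse embryos, had 7.82, 8.21 and 7.86 in KO livers and 8.39, 8.40 and 7.87 in control livers. The groups overlapped, with a difference of -0.26 (SE 0.18), or -0.17 without control replicate 2 and -0.43 without control replicate 3. Rpl22, needed for mouse T cell development, read 3.88, 4.28 and 4.14 in KO livers and 4.17, 4.24 and 4.07 in control livers, a difference of -0.064 (SE 0.14).

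Rpl30 and Rpl39, the second a protein of the exit tunnel, had dim probe sets. Rpl30 had 2.81, 2.50 and 2.64 in KO livers and 2.73, 1.97 and 3.09 in control livers, a difference of 0.054 (SE 0.25). Rpl39 had 2.97, 3.51 and 3.46 in KO livers, against 3.42, 3.26 and 3.30 in control livers, a difference of -0.012 (SE 0.17). Rpl41, the shortest ribosomal protein, read 9.42, 9.50 and 9.86 in KO livers and 9.38, 9.32 and 9.53 in control livers, with a difference of 0.18 (SE 0.15), or 0.051 without KO replicate 3. The other 28 members all had an unadjusted p over 0.05. In all, 11 of the 57 members were at or under the dim limit (Rpl5, Rpl6, Rpl11, Rpl17, Rpl27a, Rpl30, Rpl37, Rpl37a, Rpl39, Rplp2 and Rps15). The 46 above it had a median difference of 0.0011, beside -0.052 for the 11090 tested genes above it.

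The median member differed more between single KO arrays than between the groups. Taking each gene relative to its mean over the 6 arrays, the median member stood at -0.091, 0.13 and 0.019 in KO replicates 1 to 3, and at 0.027, -0.029 and -0.010 in control replicates 1 to 3. All tested genes had medians between -0.011 and 0.0027 on the same scale. KO replicate 2 was the highest KO array in 32 of 57 members (56.1%, against 33.9% of all tested genes). Of the 6 arrays it was the highest in 14 members and the lowest in 0, against 3967 and 3773 of the 22180 tested genes. KO replicate 1 was the lowest KO array in 34 members (59.6%, against 34.4%). The median difference of the members accordingly depended on which KO array was used, at 0.071 without KO replicate 1, -0.055 without KO replicate 2 and -0.014 without KO replicate 3.

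**Figure D3:**
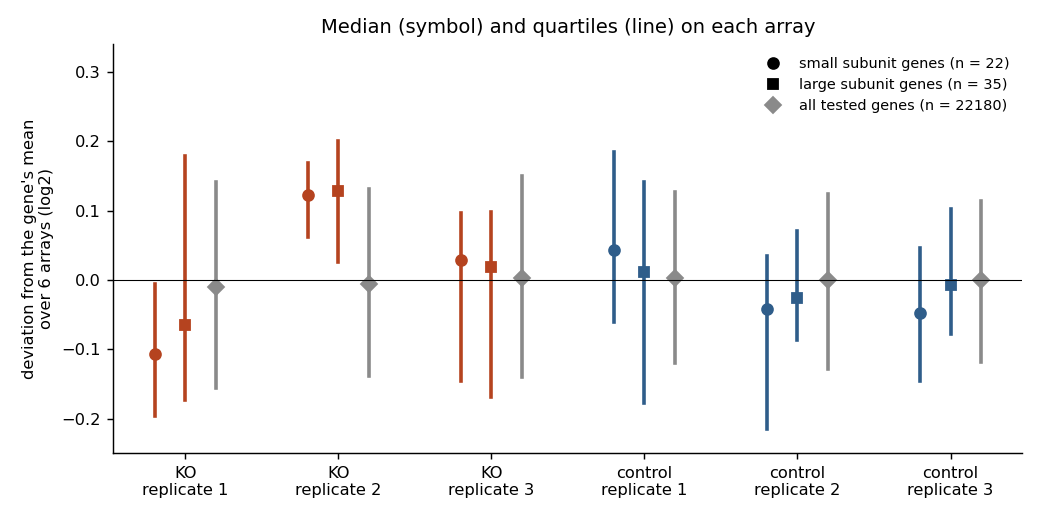
Deviation of each gene from its own mean over the 6 arrays (log2), as median (symbol) and quartiles (line) on each array, for small subunit genes, large subunit genes and all tested genes (grey). Both subunits lie highest on KO replicate 2 and lowest on KO replicate 1, while all tested genes stay near 0 on every array.

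Markers of other cells also moved between these arrays. The 11 Kupffer cell and macrophage markers averaged 6.43, 7.21 and 6.03 in KO replicates 1 to 3, against 5.75, 5.60 and 5.63 in control replicates 1 to 3. Their summed log2 level ranged from 66.3 to 79.3 in KO livers and from 61.6 to 63.3 in control livers. All 11 had positive differences, and all 11 were above the dim limit. In limma all 11 lay higher at an unadjusted p under 0.05 (100%, against 5.06% of all tested genes), and 0 passed an adjusted p of 0.05. In 10 of the 11 all KO arrays lay above all control arrays (against 7.61% of all tested genes). KO replicate 2 was highest for these markers and for the median ribosomal protein gene. It was also highest for the 6 sinusoidal endothelial markers (6.37, 7.01 and 6.39 in KO replicates 1 to 3, against 6.33, 6.28 and 6.35 in control replicates 1 to 3). The part of these cells in the ribosomal protein values was not tested. The stellate cell markers and the T and NK cell markers had 7 of 7 positive differences each, with medians of 0.13 and 0.18. In each list 1 of 7 was at an unadjusted p under 0.05 in limma (14.3%, against 5.06% of all tested genes, higher in KO). Of the 7 T and NK cell markers, 5 were at or below the dim limit. In bulk tissue, fewer cells of a type and less RNA per cell cannot be told apart. The hepatocyte markers, 8 of 8 above the dim limit, averaged 11.4 on each KO array and between 11.5 and 11.6 on the control arrays.

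For 24 members the annotation held several probe sets with that symbol, and the brightest was used. Of the 40 further probe sets, 7 repeated the chosen values exactly (in Rpl23a, Rps12 and Rps19). Of the 33 others, 22 in 17 genes were above the dim limit, and of these 13 had the sign of the chosen probe set and 9 the opposite sign. Each of the 4 higher members with more than 1 probe set differed less, or in the other direction, in the others. In Rpl29 the second probe set read 6.15, 6.20 and 6.11 in KO livers, against 6.08, 6.14 and 6.42 in control livers, a difference of -0.058 (SE 0.14). In Rplp0 the second gave -0.11 (SE 0.14). The further probe sets of Rps26 (-0.12, SE 0.15) and Rps18 (0.056 and 0.15) were dim. Rpl28 and both lower members had 1 probe set each.

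Some members near 0 by the chosen probe set were further from 0 by another. The second probe set of Rpl4, a large subunit protein reaching into the exit tunnel, read 6.45, 5.75 and 5.64 in KO livers, against 5.29, 5.28 and 5.20 in control livers. These groups did not overlap, with a difference of 0.69 (SE 0.22), while the chosen probe set gave -0.13. In Rpl13 the second gave 0.63 (SE 0.21) and the chosen -0.042. For Rpl3 the second read 4.13, 3.86 and 3.86 in KO livers, against 4.29, 4.77 and 4.59 in control livers, a difference of -0.60 (SE 0.17). All 3 control arrays lay above all 3 KO arrays there. Rpl41 had 5 probe sets with differences of 0.18, 0.18, 0.36, 0.45 and -0.16 from brightest to dimmest, and the 2 bright probe sets of Rpl21 gave 0.27 and 0.32. These genes were singled out after their values were seen. Ribosomal protein genes have many processed pseudogenes, 15 of which had a tested gene of their own here, and 57 probe sets that list a member beside another gene were not used, so single members are uncertain.

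**Figure D4:**
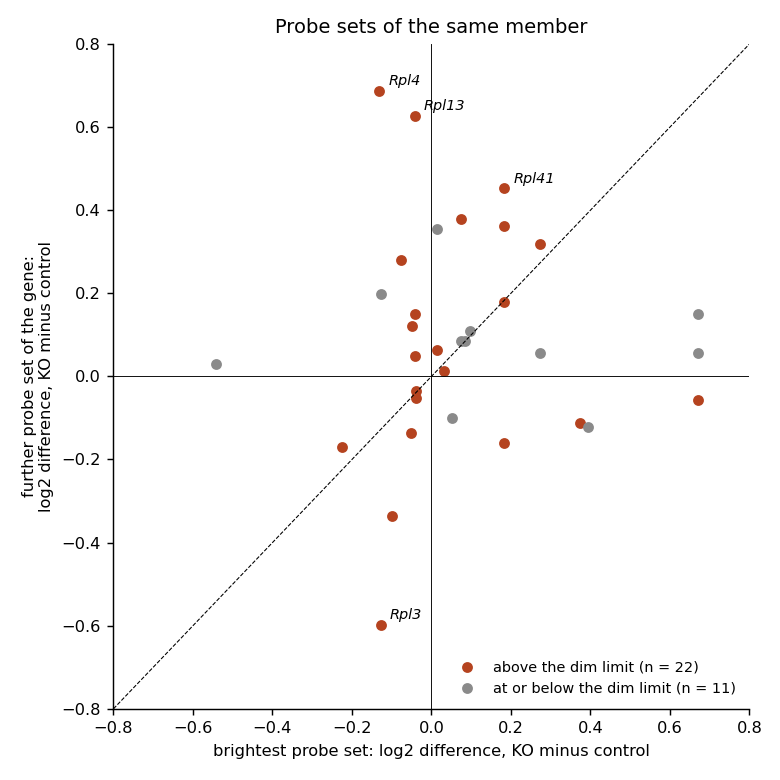
Log2 difference (KO minus control) of each further, non-identical probe set of a member against that of its brightest probe set, with the line of equality dashed; red points are above the dim limit (n = 22) and grey points at or below it (n = 11). Rpl4 and Rpl13 lie far above the line and Rpl3 below it.

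Of 8 tested ribosomal protein genes that the symbol rule does not take, 4 had positive and 4 negative differences, with a median of 0.016 and 0 at an unadjusted p under 0.05. Fau, which encodes a small subunit protein fused to a ubiquitin-like part, had 8.72, 9.12 and 8.75 in KO livers and 8.74, 8.78 and 8.67 in control livers, with a difference of 0.13 (SE 0.15), or 0.0041 without KO replicate 2. KO replicate 2 was the highest array, as it was for the median member. The paralogs Rpl3l (0.24), Rpl22l1 (0.14) and Rpl39l (-0.18) were dim, and Rpl39l turned to 0.11 without KO replicate 3.

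Initiation, elongation and assembly factors had mostly negative differences, with 0 genes past an adjusted p of 0.05 in limma in any of the lists that follow. Of 31 initiation factors 27 had negative differences, with a median of -0.18, and 7 lay lower at an unadjusted p under 0.05 (22.6%, against 5.46% of all tested genes). Eif1ax, which helps find the start codon, read 6.30, 6.05 and 5.89 in KO livers and 6.69, 6.71 and 6.44 in control livers, without overlap (-0.54, SE 0.15, limma adjusted p = 0.310). Eif5, which triggers GTP hydrolysis at the start codon, read 8.16, 8.26 and 8.26 in KO livers, against 8.63, 8.60 and 8.57 in control livers, again without overlap (-0.37, SE 0.12, limma adjusted p = 0.347). Eif2b4, a subunit of the exchange factor of eIF2, differed by -0.47 and Eif3l by -0.38. Of 10 elongation and termination factors 9 had negative differences, with a median of -0.24. Abce1, which splits ribosomes after termination, differed by -0.39 (SE 0.14, limma adjusted p = 0.398) and the synthetase-complex gene Eef1e1 by -0.47 (SE 0.17, limma adjusted p = 0.394).

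Ribosome assembly factors, which process ribosomal RNA and mount the proteins on it, had 54 of 66 negative differences and a median of -0.17. At an unadjusted p under 0.05, 15 lay lower (22.7%, against 5.46% of all tested genes) and 0 higher (against 5.06%). The genes with the largest statistics were Nop58, Brix1, Wdr12 and Utp6. Nop58, a core protein of the box C/D particles that guide RNA methylation, had 5.81, 5.70 and 5.84 in KO livers, against 6.41, 6.62 and 6.10 in control livers. The groups did not overlap, and the difference was -0.59 (SE 0.16, limma adjusted p = 0.289). Brix1, a large subunit assembly factor, had 5.82, 6.05 and 6.03 in KO livers and 6.60, 6.87 and 6.23 in control livers (-0.60, SE 0.18, limma adjusted p = 0.321). Wdr12, of the complex that processes large subunit RNA, differed by -0.53, and Utp6, of the small subunit processome, by -0.42.

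Mitochondrial ribosomal protein genes, the counterparts for the organelle's own ribosome, had 54 of 71 negative differences and a median of -0.075. At an unadjusted p under 0.05, 9 lay lower (12.7%, against 5.46% of all tested genes) and 0 higher (against 5.06%). Mrps10 had 5.12, 4.79 and 5.11 in KO livers, against 5.78, 5.66 and 5.50 in control livers, without overlap (-0.64, SE 0.15, limma adjusted p = 0.241). Mrpl50 had 6.33, 6.49 and 6.37 in KO livers and 6.92, 6.97 and 6.96 in control livers, also without overlap (-0.55, SE 0.12, limma adjusted p = 0.237). Mrpl18 differed by -0.52 (-0.31 without KO replicate 1) and Mrpl34 by -0.33.

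These medians and sign counts stand beside those of the 11090 tested genes above the dim limit. Of these, 6573 had negative and 4517 positive differences. Their median was -0.052, and 8.78% lay lower at an unadjusted p under 0.05. All initiation, elongation and assembly factors were above that limit, as were all but 3 of 71 mitochondrial ribosomal protein genes. The 46 ribosomal protein genes above it had 22 negative and 24 positive differences and a median of 0.0011, with 1 gene lower at that p (2.17%). At that p 5 of the 46 lay higher (10.9%, against 4.6% of the 11090 genes). The differences between lists were not tested.

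RNA polymerase I and its factors, which make ribosomal RNA, had a median of -0.0028 over 19 genes. At an unadjusted p under 0.05, 1 lay higher and 1 lower (5.26% each, against 5.06% and 5.46% of all tested genes). These were Polr2l at 0.36, a dim signal, and Taf1a at -0.42. Regulators of ribosomal protein synthesis had a median of -0.17 over 27 genes and 3 lower at that p (11.1%, against 5.46% of all tested genes and 8.78% of those above the dim limit, where all 27 lay), namely the mTORC2 subunit Rictor (-0.39, SE 0.13, limma adjusted p = 0.348), Mxd4, an antagonist of Myc (-0.32), and Larp4 (-0.31). The mTORC1 subunit Rptor differed by -0.27 (SE 0.14, limma adjusted p = 0.544), or -0.17 without KO replicate 3.

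Other transcripts with a TOP tract had a median of -0.022 over 18 genes. Some of these, such as Eef1b2, Eif4b and Npm1, also stand in the elongation, initiation or assembly list, so the lists are not separate sets. Tpt1, a growth-related TOP mRNA, had 8.58, 8.31 and 7.77 in KO livers, against 7.58, 7.39 and 7.66 in control livers. All KO values lay above all control values, with a difference of 0.68 (SE 0.20, limma adjusted p = 0.327), and of 0.33 with the mean of its probe sets. The elongation factor gene Eef1b2 (0.23) and Btf3, of the nascent-chain complex (0.25), had an unadjusted p over 0.05, and the chaperonin gene Cct4 lay at -0.38 (SE 0.14, limma adjusted p = 0.402). Host genes of small nucleolar RNAs had a median of -0.035 over 12 genes, among them Snhg1 (0.35) and Zfas1 (0.53), and Snhg4 (-0.50) and Snhg7 (-0.38). Zfas1 differed by 0.24 with the mean of its probe sets and 0.79 without control replicate 1, and Snhg7 by -0.24 without control replicate 2.

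**Figure D5:**
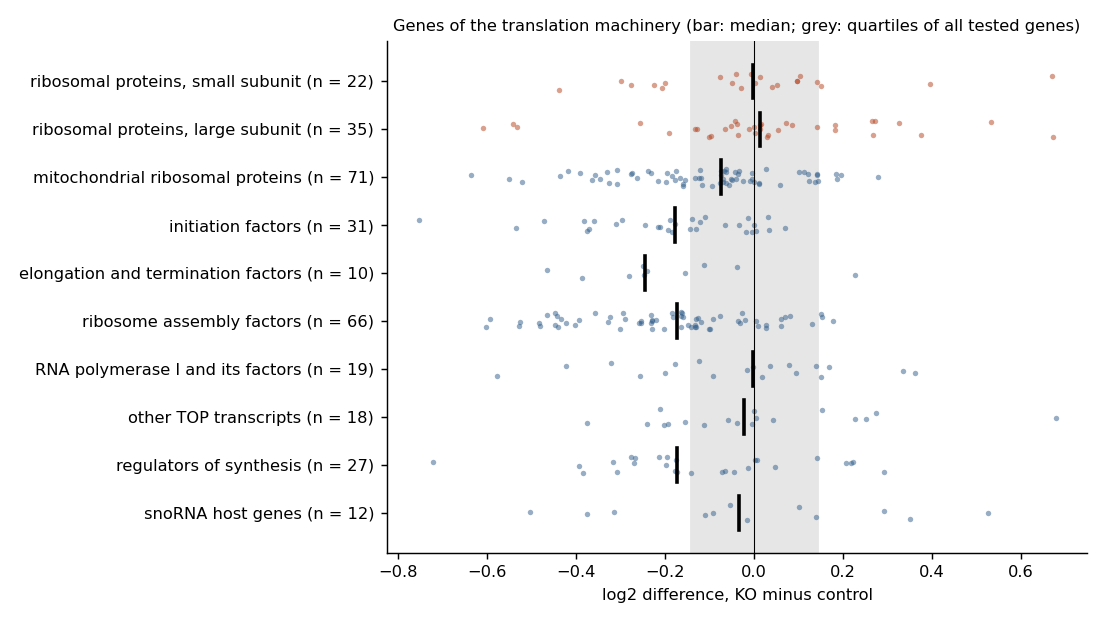
Log2 difference (KO minus control) of each gene in 10 lists of the translation machinery, points for genes and black bars for list medians, with the quartiles of all tested genes in grey. Some genes stand in several lists. Both ribosomal protein lists (red) centre on 0, while initiation factors, elongation and termination factors, assembly factors and regulators have medians between -0.24 and -0.17.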

How the data were processed

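Total liver RNA of 6 samples, 100 ng each, was labelled with biotin per the labels' protocols and measured on Affymetrix whole-transcript arrays. The deposited table holds the authors' log2 values of 41345 probe sets, made by RMA with Expression Console 1.4.1 of Affymetrix according to the submitters' processing notes. RMA sets arrays to a common distribution, so a shift of most transcripts would not be visible. Of these probe sets 23521 had 1 gene symbol in the platform annotation. The brightest per gene gave 22180 genes, fitted in limma 3.58.1 (lmFit, then eBayes; R 4.3.3; the robust alternative used statmod 1.5.0), with 2-sided p adjusted by Benjamini-Hochberg over all genes. The model holds the group alone. Probe sets of members were also fitted over all probe sets. All 57 members matched a RefSeq gene of GRCm38.p6 by gene number and symbol. The 6 arrays limit precision.

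Members, lists and named genes were chosen with earlier results of these data known. Named members are the 6 with the smallest p in each direction and a list fixed by role. In each other list, up to 4 genes with the largest statistic were eligible. Of the entries of these lists, 24 had no tested gene. The fit was tested on simulated data. Alternatives were a filter on dim probe sets, an intensity trend, a robust prior, array centring, quantile normalization, probe set means, a replicate block and leaving out each array.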

Additional observations from a re-analysis of the deposited data

How the results depend on the processing

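In limma, 0 ribosomal protein genes passed an adjusted p of 0.05 in the reported fit and under each of the 13 alternatives. At an unadjusted p under 0.05, 5 lay higher (8.77%, against 5.06% of all tested genes) and 2 lower (3.51%, against 5.46%) in the reported fit. Under the alternatives 2 to 7 lay higher (against 3.54% to 6.12%) and 1 to 3 lower (against 3.42% to 10.3%). The median difference of the members stayed between -0.0045 and 0.029 under the 7 alternatives that keep all arrays. It lay between -0.055 and 0.071 when single arrays were left out. The filter on dim probe sets left 46 members and gave 16 genes passing over all tested genes, a median of -0.052 over all genes and 1 lower member against 10.3% of all genes, Rpl37 being filtered out. The intensity trend gave 25 genes passing over all genes. Array centring put the median of all genes at -0.005. With the mean of a gene's probe sets the higher members numbered 2 (Rpl13 and Rpl28, against 5.08% of all genes), and the differences were 0.31 for Rpl29, 0.13 for Rplp0, 0.29 for Rps18 and 0.14 for Rps26. With the replicate block 1 gene passed over all genes, none of them a member, and 3 members were lower (against 5.41% of all genes), Rpl9 joining Rpl34 and Rpl37. The sample labels do not say whether same-numbered samples were paired. Deviations of same-numbered KO and control arrays correlated at 0.0064, 0.053 and 0.015 over all genes. Over the members they correlated at -0.18, 0.24 and 0.18, and arrays with different numbers at -0.33 to 0.11. These values cannot decide whether the numbers pair the samples, because arrays with different numbers spread about as widely.

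Leaving out single arrays gave 0 to 66 genes passing over all genes (66 without KO replicate 3 and 3 without control replicate 3), 2 to 7 higher members (against 3.54% to 6.12% of all genes), 1 to 3 lower members (against 3.42% to 6.21%) and a median over all genes between -0.0041 and 0.0026. There were 3 higher members without KO replicate 1, and 2 higher and 1 lower without control replicate 1 or without control replicate 2. Rpl29 and Rpl37 alone were at an unadjusted p under 0.05 in each of these 6 fits. Of 370 values of the 29 named members under alternatives, 26, in 10 members (Rpl3, Rpl22, Rpl26, Rpl30, Rpl39, Rps3, Rps6, Rps14, Rps19 and Rps24), changed sign, and 0 of these 26 were at an unadjusted p under 0.05 in either fit. The signal limits what the 11 dim members can show.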
